A study of Mus musculus with 7 samples.

Results

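The circadian clock genes described here are *Per1*, *Per2*, *Per3*, *Cry1*, *Cry2*, *Arntl*, *Clock*, *Npas2*, *Nr1d1* and *Bhlhe41*, 10 of the 52550 genes counted in retina by total RNA-seq. They were chosen by name as the core loop and its close outputs, and each was found once in the GRCm38 annotation. All 10 passed the filter on low counts and were among the 20128 genes tested. The libraries came from 4 WT mice and 3 mice homozygous for the SCA7 knock-in allele, at an age of 12.5 weeks and on the C57Bl/6J background. In the knock-in mice both *Atxn7* alleles, read from their own promoter, carry a CAG expansion encoding about 140 glutamines, and ATXN7 is a subunit of the histone acetylating complex SAGA. Each library was made from the 2 retinas of a mouse, so every value is an average over all cell types of the tissue. The animals lived in a light/dark cycle, but the hour of collection and the sex of each mouse are not given in the sources used here.

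The clock is a feedback loop of transcription. ARNTL (also called BMAL1) pairs with CLOCK or NPAS2 and activates genes through E-boxes, among them the *Per*, *Cry*, *Nr1d1* and *Bhlhe41* genes. PER and CRY proteins then block ARNTL and CLOCK, while NR1D1 (REV-ERBα) represses *Arntl* through ROR elements (ROREs), so that *Arntl* and the *Per* and *Nr1d1* genes peak at opposite times of day. In the retina this loop runs in several cell types and is set by light, and it times photoreceptor outer segment turnover, melatonin and dopamine.

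The elements through which the loop acts can be read in the genes themselves. Promoter windows of 250 bases before to 50 bases after a transcript start (RefSeq, GRCm38.p6) were available for 9 of the 10 genes, the exception being *Per2*. They were searched on both strands for the E-box CACGTG, the D-box TTATGTAA, which is bound by DBP, TEF and HLF, and the RORE core TAGGTCA or TGGGTCA. None of these motifs contains another. The matches are shown as 30 bases of the gene's strand, 5′ to 3′, with the motif in capitals, because E-boxes, D-boxes and ROREs are the kinds of element through which the loop is known to act.
*Per1* E-box, chr11:69098771-69098800: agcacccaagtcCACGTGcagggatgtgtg
*Cry1* E-box, chr10:85185097-85185126: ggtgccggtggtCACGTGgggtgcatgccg
*Bhlhe41* E-box, chr6:145865556-145865585: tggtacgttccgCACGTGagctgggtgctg
*Per3* first D-box, chr4:151044852-151044881: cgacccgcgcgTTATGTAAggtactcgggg
*Per3* second D-box, chr4:151044805-151044834: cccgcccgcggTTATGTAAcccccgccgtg
*Arntl* RORE, chr7:113207530-113207559: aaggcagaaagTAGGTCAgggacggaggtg

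*Per1* and *Arntl* lie on the plus strand and *Cry1*, *Bhlhe41* and *Per3* on the minus strand. The E-boxes begin 166, 60 and 153 bases before a transcript start of *Per1*, *Cry1* and *Bhlhe41*, and the D-boxes of *Per3* begin 205 and 158 bases before one. The starts of *Per1*, *Cry1*, *Bhlhe41* and *Arntl* in question lie inside the genes as annotated, not at their first base, that of *Per1* furthest inside. The RORE of *Arntl* begins 30 bases after a transcript start. Over all 27025 genes with such windows, 8.09% held the E-box, 1.11% the D-box and 7.35% the RORE core. The windows of *Cry2*, *Clock*, *Npas2* and *Nr1d1* held none of these letters, which says nothing about sites elsewhere in the gene.

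The data behind these values were deep. Total counts lay between 56497675 and 96635832 per library, so that 1 count equals between 0.00972 and 0.0188 TMM-normalized CPM, and 9 of the members had at least 878 counts in every library. The exception was *Npas2*, with 98 to 139 counts. All 10 rod markers read as a check of the tissue label were present in every library. Levels are TMM-normalized CPM, with ± the SD over the 4 WT or 3 SCA7 mice. Genotypes were compared by the quasi-likelihood test of edgeR, and p-values were adjusted by Benjamini-Hochberg across the 20128 genes.

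In SCA7 retina the clock genes that fell were *Per3* and *Bhlhe41*. Both are of the repressing side of the loop, as are most of the members. *Per3* was at 0.687 times its WT level and *Bhlhe41* at 0.748 times. The activators *Arntl* and *Clock* and both *Cry* genes differed from WT by between -0.05 and 0.09 on the log2 scale, and none of them passed the test. The remaining activator, *Npas2*, was at -0.33 and did not pass either (adjusted p = 0.098), with every SCA7 library below every WT library. Thus 2 of 10 members were lower at an adjusted p under 0.05, against 14.2% of all genes tested (28.3% in either direction), and 1 of 10 was also under an FC (SCA7/WT) of 0.7, against 7.91%. The latter gene is *Per3*, whose FC was 0.717 without WT replicate 1, so that the count was then 0. No member was higher (0 of 10 by edgeR, and 0 also by DESeq2 and limma-voom), against 14.2% of all genes and 7.47% with an FC above 1.3. In that direction 0 of 10 reached an unadjusted p under 0.05, against 19.5% of all genes, while 5 of 10 did so as lower, against 20.2%. The median log2 fold change of the members was -0.21, beside -0.02 over all genes tested, and 7 of 10 had a lower fitted level in SCA7, as did 52.5% of all genes. In a list of 10 a single gene is 10% of the members, so 2 lower genes lie near the background.

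**Figure D1:**
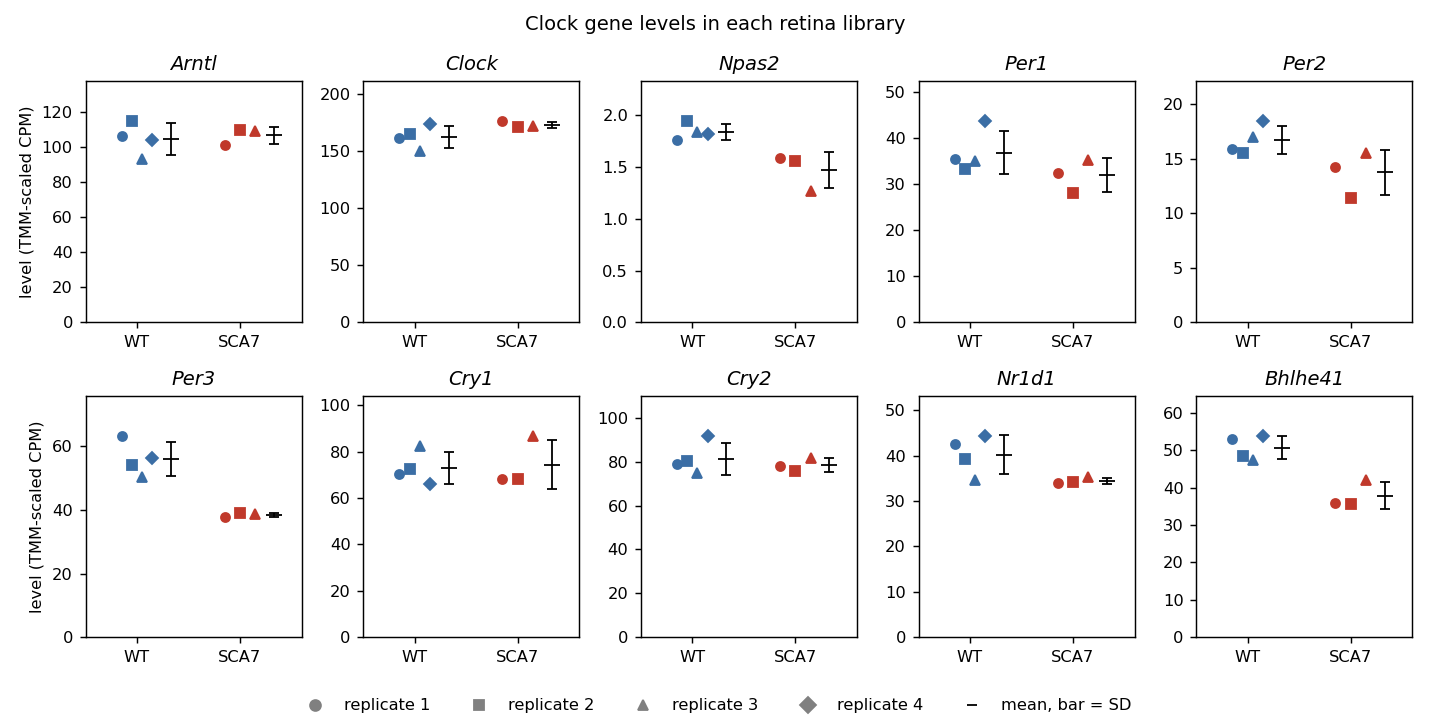
Level of each of the 10 clock genes in TMM-normalized CPM (y axis, from 0) in the 4 WT and 3 SCA7 libraries; symbols mark the replicate number, and the black mark with its bar is the mean with the SD. *Per3* and *Bhlhe41* separate clearly, *Per2* and *Npas2* narrowly, and the ranges of *Arntl*, *Clock*, *Cry1* and *Cry2* overlap.

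*Per3* (ENSMUSG00000028957; chr4:151003652-151044665 of GRCm38, minus strand) encodes the third PERIOD protein, which modulates the loop but is not needed for it to run. It had 63.2, 54.1, 50.4 and 56.4 CPM in the WT libraries and 37.8, 39.0 and 38.8 CPM in the SCA7 libraries. The lowest WT mouse was thus well above the highest SCA7 mouse, and the SCA7 mice were almost identical. On the log2 scale *Per3* fell by 0.54 (adjusted p = 2.1e-04), with a standard error of 0.07 and a 95% interval from -0.70 to -0.38. The gene spans part of *Camta1* on the same strand without shared exon sequence, and *Camta1* had a mean of 101 CPM in WT and of 99.0 CPM in SCA7 (adjusted p = 0.74).

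*Bhlhe41* (ENSMUSG00000030256; chr6:145858243-145865558, minus strand) encodes DEC2, a repressor that competes with ARNTL and CLOCK at E-boxes. Its WT libraries held 52.9, 48.5, 47.5 and 53.7 CPM. The SCA7 libraries held 35.9, 35.6 and 42.1 CPM, again all below WT, with replicate 3 highest. *Bhlhe41* fell by 0.42 on the log2 scale (adjusted p = 0.0015), with a standard error of 0.08 and a 95% interval from -0.58 to -0.25. A transcript of the opposite strand, *Gm43909*, shares 1280 exon bases with it and had 0.305 CPM in WT and 0.322 CPM in SCA7. The related repressor *Bhlhe40* (DEC1) did not pass the test at 41.9 ± 4.98 CPM in WT against 46.0 ± 5.66 CPM in SCA7 (adjusted p = 0.35). The difference between these relatives shows within each library. The log2 ratio of *Bhlhe41* to *Bhlhe40* counts lay above 0 in every WT library (0.01 to 0.56) and below 0 in every SCA7 library (-0.35 to -0.18).

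*Per1* and *Per2* encode the PERIOD proteins that carry most of the repression, and both are also induced directly by light and hormones. *Per1* (ENSMUSG00000020893; chr11:69095217-69109960, plus strand) had 35.4, 33.3, 35.0 and 43.7 CPM in WT and 32.5, 28.0 and 35.3 CPM in SCA7. These ranges overlap, and the log2 fold change of -0.21 did not pass the test (adjusted p = 0.16, 95% interval -0.43 to 0.02). It was -0.11 without WT replicate 4, -0.12 without SCA7 replicate 2 and -0.28 without SCA7 replicate 3, and it passed without no single library. *Per2* (ENSMUSG00000055866; chr1:91415982-91459324, minus strand) had 15.9, 15.5, 17.0 and 18.4 CPM in WT and 14.3, 11.4 and 15.5 CPM in SCA7. Here the genotypes only just separate, at 15.547 CPM in the lowest WT mouse and 15.543 CPM in the highest SCA7 mouse. The fitted change of *Per2* was -0.28 on the log2 scale, with a standard error of 0.10 (adjusted p = 0.061). Single SCA7 mice moved this value in both directions, to -0.38 with a pass of the test without replicate 3 (adjusted p = 0.033) and to -0.16 without replicate 2 (adjusted p = 0.26). The 95% intervals given here belong to each gene alone and are not adjusted for the number of genes, so that of *Per2*, from -0.51 to -0.06, leaves out 0 although the adjusted p does not pass.

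*Cry1* and *Cry2* encode the cryptochromes, the other partners of the repressor complex. *Cry1* (ENSMUSG00000020038; chr10:85131700-85185064, minus strand) had 70.2, 72.7, 82.2 and 65.9 CPM in WT and 68.4, 68.0 and 86.6 CPM in SCA7. In both genotypes replicate 3 was highest, and the other SCA7 mice lay within the WT range. The log2 fold change was 0.03 (adjusted p = 0.83, 95% interval -0.18 to 0.24). *Cry2* (ENSMUSG00000068742; chr2:92403646-92434043, minus strand) had 78.7, 80.1, 74.7 and 91.6 CPM in WT and 77.9, 75.8 and 81.9 CPM in SCA7, a log2 fold change of -0.05 (adjusted p = 0.65, 95% interval -0.21 to 0.11). All SCA7 values of *Cry2* lie inside the WT range. *Cry2* shares 295 exon bases with the opposite-strand transcript *D930015M05Rik*, which had 0.0611 CPM in WT and 0.0947 CPM in SCA7.

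On the activating side, *Arntl* (ENSMUSG00000055116; chr7:113207465-113314126, plus strand) encodes the one partner without which the loop stops. It had 107, 115, 93.2 and 104 CPM in WT and 101, 110 and 109 CPM in SCA7. The SCA7 range lay inside the WT range, with a log2 fold change of 0.03 (adjusted p = 0.80, 95% interval -0.13 to 0.19). *Clock* (ENSMUSG00000029238; chr5:76209868-76304792, minus strand), its usual partner, had 161, 165, 150 and 173 CPM in WT and 176, 171 and 172 CPM in SCA7. The log2 fold change of *Clock* was 0.09 (adjusted p = 0.30, 95% interval -0.05 to 0.23), with 2 of 3 SCA7 mice inside the WT range.

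*Npas2* (ENSMUSG00000026077; chr1:39193731-39363236, plus strand), a relative of CLOCK that can take its place, was the member with the fewest counts. It had 1.76, 1.94, 1.84 and 1.82 CPM in WT and 1.59, 1.56 and 1.27 CPM in SCA7. All SCA7 mice were below all WT mice, but the log2 fold change of -0.33 did not pass the test (standard error 0.14, adjusted p = 0.098, 95% interval -0.63 to -0.03).

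*Nr1d1* (ENSMUSG00000020889; chr11:98767932-98775333, minus strand) encodes the REV-ERBα repressor of *Arntl*. Its WT libraries spread from 34.5 to 44.3 CPM (42.6, 39.3, 34.5 and 44.3 CPM), and its SCA7 libraries held 33.9, 34.1 and 35.2 CPM. All SCA7 mice were at the level of the lowest WT mouse, replicate 3. The fitted change was -0.22 on the log2 scale with a 95% interval from -0.40 to -0.05 (adjusted p = 0.055). Without WT replicate 3 it was -0.29 with an adjusted p of 0.0015. Without any other single library it lay between -0.24 and -0.18 and did not pass the test (adjusted p = 0.090 to 0.17). *Nr1d1* shares 263 exon bases with *Thra*, the thyroid hormone receptor gene on the opposite strand, which had 207 CPM in WT and 224 CPM in SCA7 (adjusted p = 0.20). The library kit kept the strand, but the strand option of the counting is not stated. Reads of this stretch, and of those that *Cry2*, *Arntl* and *Bhlhe41* share with other genes, may therefore not be separated.

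Over the members, 4 of 10 had every SCA7 library below every WT library, namely *Per2*, *Per3*, *Npas2* and *Bhlhe41*. Among all genes tested, 18.3% were separated in this direction, 19.3% in the other and 37.5% in either. These libraries are scaled relative to most genes, so a change in the RNA output of the whole tissue would not show in any of these values.

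**Figure D2:**
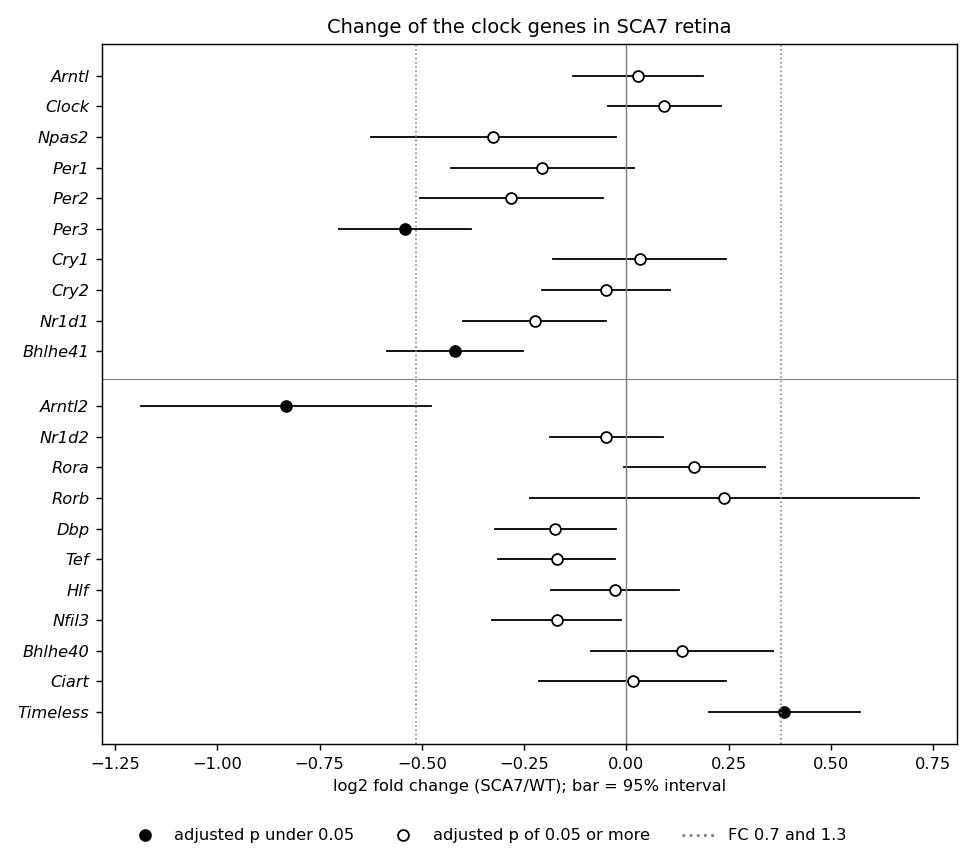
Log2 fold change (SCA7/WT, x axis) of the 10 clock genes (above the line) and of 11 of the 12 further loop genes (below it), with 95% intervals; filled points have an adjusted p under 0.05 and dotted lines mark FC 0.7 and 1.3. *Per3*, *Bhlhe41* and *Arntl2* are the filled points to the left of 0 and *Timeless* the one to the right.

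In WT retina the levels of the members differed widely, and they are compared here per kb of transcript. With the median transcript length of each gene, as used for RPK (normalized reads per kb) in the study, *Cry1* was highest at 11008 ± 1032 RPK, followed by *Bhlhe41* at 4700 ± 289 RPK. *Clock*, *Arntl* and *Cry2* came next at 2808 ± 175, 2646 ± 233 and 2645 ± 238 RPK, and these ranges overlap, so their order is not set. *Nr1d1* was at 1584 ± 170 RPK, *Per3* at 909 ± 86.5 RPK, *Per1* at 632 ± 79.4 RPK and *Per2* at 381 ± 29.4 RPK. *Npas2* was lowest at 262 ± 11.6 RPK. Apart from *Clock*, *Arntl* and *Cry2*, neighbours in this order had no overlap between their 4 WT libraries.

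This order depends on the length. The median transcript of *Cry1* is only 456 bases, of *Npas2* 484 bases and of *Bhlhe41* 744 bases. Divided by the union of exons instead, *Cry1* was still highest, at 1503 RPK, and *Arntl* (961), *Nr1d1* (902), *Cry2* (888) and *Clock* (816 RPK) followed. *Bhlhe41* then came sixth at 520 RPK, ahead of *Per1* at 452 RPK and *Per3* at 403 RPK. *Per2* (197 RPK) and *Npas2* (26.5 RPK) were at the bottom by either length. With median lengths the SCA7 mice gave the same order of the 10 genes.

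To compare the arms of the loop within a library, where library scaling has no part, the mean log2 CPM of *Arntl*, *Clock* and *Npas2* was subtracted from that of *Per1*, *Per2*, *Per3* and *Nr1d1*. Called the arm difference, it was 0.16, -0.04, 0.11 and 0.23 in the WT libraries and -0.14, -0.28 and 0.02 in the SCA7 libraries. The means were 0.11 ± 0.12 and -0.13 ± 0.15, and the ranges overlap through WT replicate 2 and SCA7 replicate 3. No p is given, as a score over chosen genes is a description. Which genes make up the arms matters. With *Per3* left out the mean difference between genotypes went from -0.25 to -0.17, and with *Dbp*, *Tef*, *Nr1d2*, *Ciart* and *Bhlhe41* added to the first arm and *Nfil3* to the second it was -0.14. With *Npas2* left out it was -0.38 and the genotypes no longer overlapped, at -2.09 to -1.83 in WT and -2.42 to -2.22 in SCA7. Both of these omissions were chosen after seeing the data.

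A pair that links the arms directly is *Nr1d1* and its target *Arntl*. The log2 ratio of *Nr1d1* to *Arntl* counts was -1.32, -1.55, -1.43 and -1.23 in WT and -1.58, -1.69 and -1.63 in SCA7. No SCA7 mouse reached the lowest WT mouse, and the means differed by -0.25, although the gap at the border, from -1.55 to -1.58, was small. Of the other pairs, *Npas2* to *Clock* also separated the genotypes, at -6.46 ± 0.10 in WT and -6.88 ± 0.17 in SCA7. The ratio of *Per3* to *Per1* overlapped, at 0.61 ± 0.20 in WT and 0.28 ± 0.18 in SCA7, so these libraries do not set the change of *Per3* clearly apart from that of *Per1*. The ratios of *Per3* to *Per2*, *Per1* to *Per2*, *Cry1* to *Cry2* and *Nr1d1* to *Nr1d2* overlapped too.

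**Figure D3:**
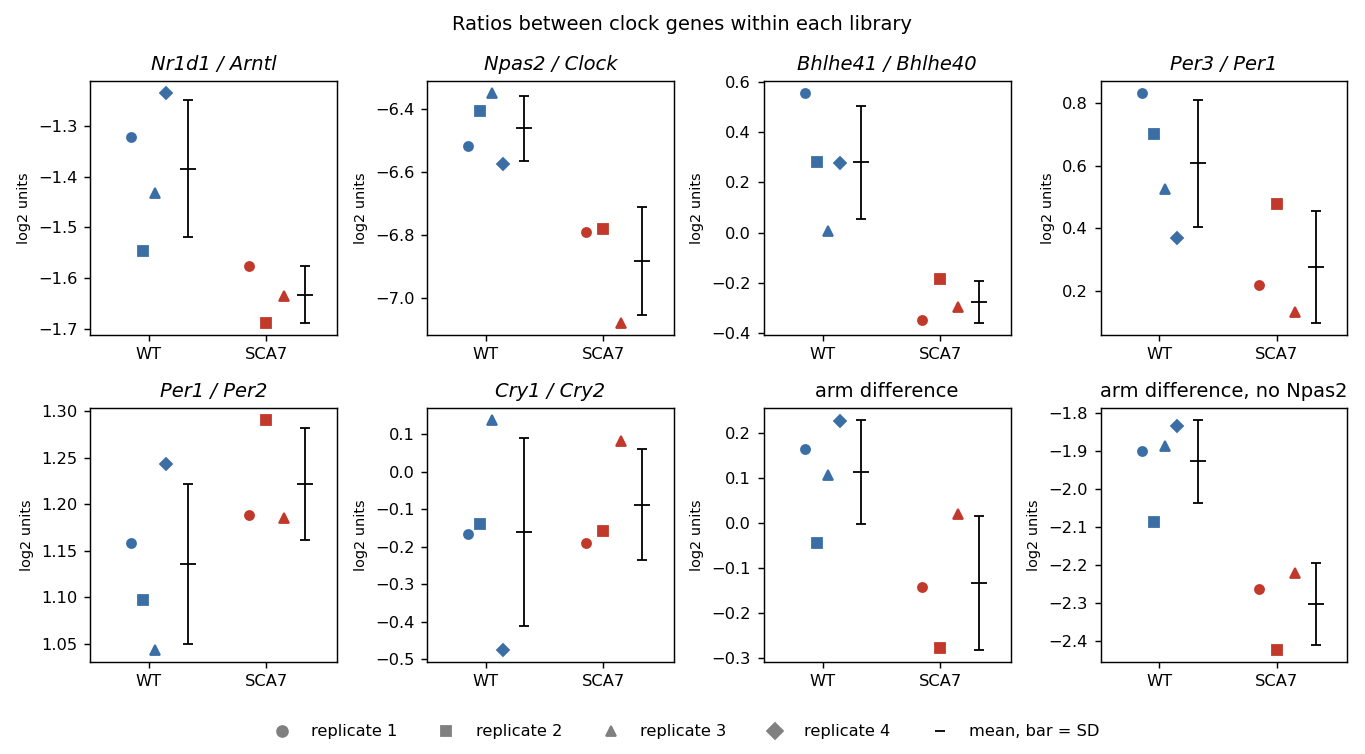
Log2 ratios of counts of paired clock genes and the arm difference with and without *Npas2* (y axes, log2 units, scaled to each panel and not from 0) in each WT and SCA7 library; symbols mark the replicate number and the black mark with its bar the mean with the SD. The ratios *Nr1d1* to *Arntl*, *Npas2* to *Clock* and *Bhlhe41* to *Bhlhe40* have no overlap between genotypes, and *Per3* to *Per1*, *Per1* to *Per2* and *Cry1* to *Cry2* do.

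Mice of a genotype also differed from each other in their clock genes. Among the members at or above 10 CPM the coefficient of variation in WT was between 6.07% for *Clock* and 12.6% for *Per1*. The median over the 10059 genes at or above a mean of 10 CPM was 7.26%. In SCA7 it was 15.3% for *Per2*, 14.4% for *Cry1*, 11.6% for *Per1* and 9.78% for *Bhlhe41*, against a median of 3.67%, while *Clock*, *Per3* and *Nr1d1* were at 1.52%, 1.62% and 2.04%. *Npas2*, at 11.9% in SCA7, is under 10 CPM and is not read against these medians. The other members thus held both some of the more variable and some of the steadier genes among the SCA7 mice.

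These deviations had a pattern. When each library was set against the mean of its genotype, *Per1* and *Per2* deviated together (r = 0.90 over 7 libraries), and the E-box gene *Ciart*, which encodes a repressor of the loop, followed *Per2* (r = 0.95). Among the WT mice replicate 4 was highest in *Per1* and *Per2*, by 0.25 and 0.15 on the log2 scale. Among the SCA7 mice replicate 3 was highest, by 0.15 and 0.19, and replicate 2 lowest, at -0.18 and -0.25. *Cry1* went with *Dbp* and *Nr1d2* (r = 0.92 for both) rather than with *Per1* (r = 0.06), and WT replicate 3 and SCA7 replicate 3 were highest in *Cry1*, by 0.18 and 0.23. *Nr1d1* went with *Clock* (r = 0.84), *Per3* and *Cry2* (r = 0.78 for both), and with *Arntl* its r was 0.54, not below 0. These values describe 7 libraries whose genes share depth, scaling and cell makeup, and no test was made of them.

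**Figure D4:**
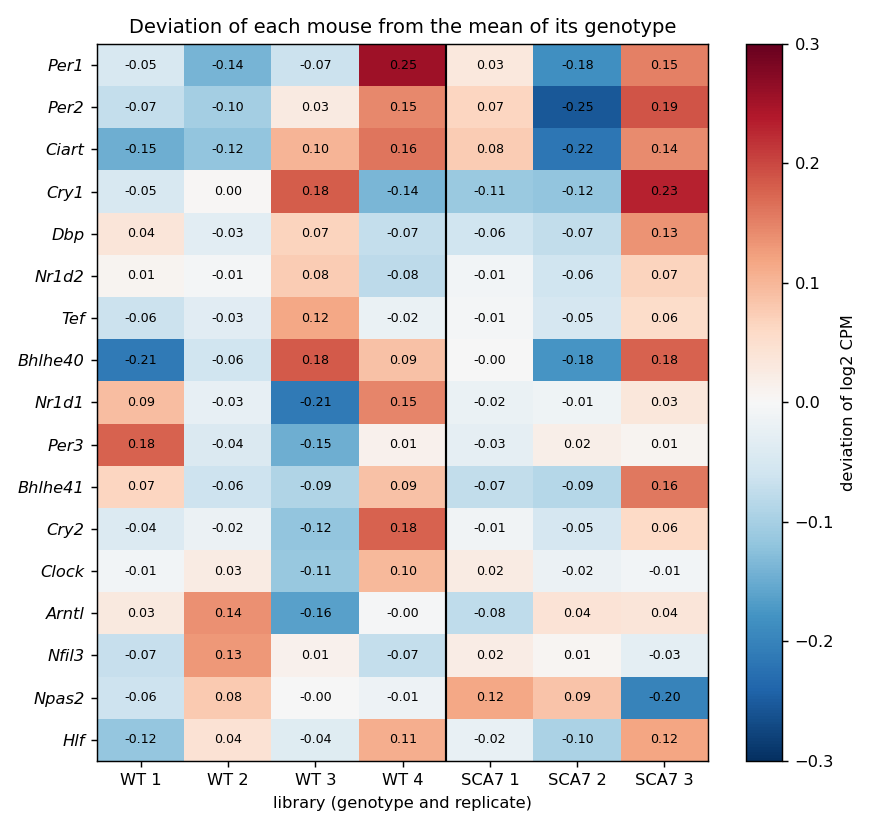
Deviation of log2 CPM from the mean of the genotype (colour and printed value) for 17 clock genes (rows) in the 4 WT and 3 SCA7 libraries (columns, divided by a line). *Per1*, *Per2* and *Ciart* are raised together in WT replicate 4 and SCA7 replicate 3 and lowered in SCA7 replicate 2, and *Cry1* is raised in replicate 3 of both genotypes.

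Of 12 further genes of the loop, all tested, 1 fell and 1 rose, near the background of 14.2% in each direction, and their median log2 fold change was -0.01. *Arntl2*, the paralog of *Arntl*, had 2.97, 2.00, 2.23 and 2.26 CPM in WT and 1.50, 1.29 and 1.22 CPM in SCA7, a change of -0.83 on the log2 scale with a standard error of 0.16 (adjusted p = 0.0025). *Timeless*, whose protein serves mainly DNA replication and binds PER and CRY, had 6.54, 6.49, 6.53 and 6.79 CPM in WT and 9.33, 7.92 and 8.60 CPM in SCA7, a change of 0.39 with a standard error of 0.09 (adjusted p = 0.0053). For both genes the genotypes were fully apart. The D-box factors *Dbp* and *Tef*, direct outputs of the loop, did not pass the test at log2 fold changes of -0.17 each (adjusted p = 0.078 and 0.073), although *Dbp* passed without SCA7 replicate 3, and the third, *Hlf*, was at -0.03. *Nfil3*, which opposes them at the D-box, was at -0.17 (adjusted p = 0.10). The second REV-ERB gene *Nr1d2* was at -0.05, and *Rora* and *Rorb*, which activate through ROREs, were at 0.17 and 0.24 without passing the test.

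Of 14 genes for enzymes and ligase subunits that modify clock proteins, 4 rose, against 14.2% of all genes in that direction, each by less than an FC of 1.3. The median of the list was 0.11. *Csnk1d* and *Csnk1e*, the casein kinases that phosphorylate PER, rose by 0.24 and 0.19 on the log2 scale (adjusted p = 0.0094 and 0.021). *Fbxw11*, a ubiquitin ligase subunit for PER, rose by 0.20 and the AMP-activated kinase gene *Prkaa1*, whose product phosphorylates CRY1, by 0.21 (adjusted p = 0.017 and 0.023). The level of *Csnk1d* was 66.4 ± 3.96 CPM among WT mice and 78.7 ± 0.917 CPM among SCA7 mice.

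Of 15 genes linked to retinal rhythms and their light input, 12 were tested and 5 fell, against 14.2%, with a median log2 fold change of -0.39. The neuropeptide gene *Vip* fell from 26.5 ± 7.35 to 7.56 ± 1.08 CPM (log2 fold change -1.80, adjusted p = 0.0017) and *Opn4*, the melanopsin of intrinsically photosensitive ganglion cells, from 3.54 ± 0.317 to 2.01 ± 0.174 CPM (-0.81, adjusted p = 5.1e-04). *Adcyap1*, the PACAP gene of the same ganglion cells, fell by 0.74 (adjusted p = 8.2e-04), *Th*, the rate-limiting enzyme of dopamine synthesis, by 0.54 (adjusted p = 0.017) and the dopamine receptor gene *Drd2* by 0.41 (adjusted p = 0.0024). In contrast, *Drd4*, a dopamine receptor of photoreceptors that cycles over the day, was at 104 ± 4.75 CPM in WT against 97.9 ± 19.0 CPM in SCA7 (adjusted p = 0.58). The adenylyl cyclase gene *Adcy1* was at 428 and 431 CPM (adjusted p = 0.95). Beside these values, 4 of 8 amacrine cell markers were lower (median -0.28, summed at 972 to 1142 CPM in WT and 822 to 900 CPM in SCA7). Of the bipolar cell markers 5 of 8 were lower (median -0.30, 823 to 967 CPM and 752 to 796 CPM), against 14.2% of all genes. Of 8 ganglion cell markers 1 was lower, near that share, with all 8 fitted changes below 0 (median -0.11, 964 to 1173 CPM and 882 to 942 CPM). Of 4 horizontal cell markers 1 was lower (85.0 to 97.3 CPM and 70.9 to 72.4 CPM). The part of these cells in the values of *Vip*, *Opn4*, *Adcyap1*, *Th* and *Drd2* was not tested. The melatonin synthesis genes *Aanat* and *Asmt* and the receptor gene *Mtnr1b* had too few counts to be tested.

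Markers of several cell types moved with the genotype beside these values. Over all genes tested 14.2% were higher and 14.2% lower. All 10 rod markers were lower in SCA7 (median -1.20 on the log2 scale), and their summed level was 64056 to 65947 CPM in WT and 17249 to 22238 CPM in SCA7. Of 10 cone markers 9 were lower, summed over the list at 1648 to 1912 CPM in WT and 759 to 807 CPM in SCA7. The tenth, *Gnb3*, was higher by 1.06 on the log2 scale (adjusted p = 5.5e-07), and the sum of the other 9 was 1392 to 1631 CPM in WT and 215 to 240 CPM in SCA7. All 10 microglial markers were higher, summed at 75.4 to 95.3 CPM and 158 to 177 CPM. Of 8 markers of reactive glia 7 were higher, with a median of 2.68 and a sum of 107 to 119 CPM in WT and 541 to 640 CPM in SCA7, and of 8 Müller cell markers 4 were higher and 1 lower (median 0.25). Of 8 markers of endothelium and pericytes 5 were higher and 2 lower (median 0.26). Their sum was nevertheless lower in SCA7, with 845 to 1011 CPM against 1301 to 1464 CPM in WT. Most of the WT sum came from *Vtn*, 1 of the 2 lower genes, which fell by 0.94 on the log2 scale (adjusted p = 1.4e-05). Its mean went from 1102 CPM among WT mice to 576 CPM among SCA7 mice. With *Vtn* left out, every SCA7 library had a higher sum of these markers than every WT library. Of 8 markers of the pigment epithelium, which adheres to the retina at dissection, 5 were lower, summed at 223, 230, 113 and 214 CPM in WT replicates 1 to 4 and at 54.8, 45.6 and 23.0 CPM in SCA7. The other 3, *Best1*, *Mlana* and *Tyrp1*, were at 0.08, 0.56 and 0.51 on the log2 scale without passing the test. No marker of these lists was at 0 in any library. In whole retina, fewer cells of a type and less RNA per cell cannot be told apart. WT replicate 3, with the lowest sum of pigment epithelium markers among the WT mice, was also the lowest WT library for *Per3*, *Bhlhe41*, *Nr1d1*, *Arntl*, *Clock* and *Cry2*, but the highest for *Cry1*, and it was not the lowest for *Per1*, *Per2* or *Npas2*. SCA7 replicate 3, with the lowest sum of all libraries, was the highest SCA7 library for *Per1*, *Per2*, *Cry1*, *Cry2*, *Nr1d1* and *Bhlhe41*. The part of photoreceptors, microglia, glia, vessels and pigment epithelium in the values of *Per3*, *Bhlhe41* and the other clock genes was not tested.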

How the data were processed

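Total RNA depleted of ribosomal RNA was sequenced by the authors as single reads of 50 bases from stranded libraries of 4 WT and 3 SCA7 homozygous mice, 1 library per mouse. Per the labels and the study's methods, they mapped reads to mm10 with TopHat2 2.0.14 and Bowtie2 2.1.0 and counted them per gene of Ensembl release 90 with HTSeq 0.6.1. The deposited values are raw counts, not normalized, and the mode and strand option of HTSeq are not given in the sources used here. Names, positions and lengths came from GENCODE M21, of the same assembly.

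Genes were filtered with filterByExpr, scaled by TMM and fitted without covariates by the robust quasi-likelihood test of edgeR 4.0.16 (R 4.3.3), two-sided, with Benjamini-Hochberg adjustment. "Rose" and "fell" mean an adjusted p under 0.05. The FC thresholds of 0.7 and 1.3 are those of the study. Standard errors and intervals are those of the fit. Log2 CPM used a prior count of 2. RPK divides counts by DESeq2 size factors and by the median length of a gene's transcripts. Alternatives used DESeq2 1.42.0, limma 3.58.1, other filters, a replicate block, the *Xist* level and each library left out. On simulated data the fits recovered the size of known changes with few false calls, but limma-voom and the block fit missed a first limit on the number of changes called, which was then lowered. The members and gene lists were chosen with earlier results of these data known. All members are named. Of the other lists the rule named the genes past the test and the genes overlapping a member. The genes overlapping *Arntl*, *Clock* and *Npas2* are not reported here. Any other gene of these lists named in the text was chosen after its values were seen. Likeness used genes of at least 10 CPM, 5 per side. Marker lists are given by counts and sums, and the single values of most of their genes, and of some genes of the other lists, are not reported here.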

Additional observations from a re-analysis of the deposited data

How the results depend on the processing

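*Per3* and *Bhlhe41* stayed lower at an adjusted p under 0.05 in all 14 alternatives of the fit, with log2 fold changes from -0.59 to -0.48 and from -0.50 to -0.37. No member was higher in any of them (0 of 10). The number of lower members, 2, was 4 with the *Xist* level as covariate (*Per2* and *Nr1d1* added), 1 with FC thresholds as well, and 2 to 3 when libraries were left out. The *Xist* covariate also gave more calls over all genes, 3664 higher and 3464 lower in place of 2853 and 2852. The cause of these shifts was not tested. *Per2* also passed without a filter on low counts (adjusted p = 0.044). Whether the replicate numbers pair the mice is not stated in the sources used here. Same-numbered WT and SCA7 libraries deviated with r = 0.01, 0.20 and 0.09, which cannot settle it. With the replicate number as a block 3 members were lower, *Per2* among them (adjusted p = 0.020). The block also gave more calls over all genes, 3461 higher and 3418 lower in place of 2853 and 2852. Of the further loop genes, the block gave 3 higher (*Rora* and *Rorb* added) and 2 lower genes (*Dbp* added), and the *Xist* covariate 2 higher (*Rora* added) and 3 lower (*Dbp* and *Tef* added), in place of 1 and 1. Without single libraries these counts were 1 higher each time and 1 to 2 lower, the 2 without SCA7 replicate 3. Over all genes, 2853 higher and 2852 lower genes became 1608 and 1580 at an adjusted p under 0.01 and 1504 and 1592 with FC thresholds, and 1748 to 3523 and 1771 to 3363 without single libraries, the fewest without SCA7 replicate 1. The arm difference between genotypes was -0.32 to -0.17 without single libraries and -0.25 with a prior count of 0.5. No scaling moved the median of all genes by over 0.1. With 98 to 139 counts per library, depth limits *Npas2* most.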

Other observations

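Genes that respond to light, activity or hormones within the hour were also read, since *Per1* and *Per2* belong to the same kind of response. Of 11 immediate early genes, 4 rose and 2 fell in SCA7 retina, against 14.2% of all genes in each direction, and the median log2 fold change was 0.40. *Egr1* rose by 0.71 on the log2 scale (adjusted p = 0.0026), with 4.24 ± 0.467 CPM in WT and 6.94 ± 1.38 CPM in SCA7, and *Junb* and *Fosb* rose by 0.70 and 0.50 (adjusted p = 3.5e-04 and 0.011). *Egr2* rose as well (adjusted p = 0.0020), from a mean of only 0.0448 CPM. *Npas4*, a transcription factor gene induced by neuronal activity, fell by 1.73 (adjusted p = 2.8e-05), and *Dusp1*, a phosphatase gene, by 0.48 (adjusted p = 0.0083). *Fos* was at 16.1 ± 2.39 and 13.6 ± 3.22 CPM and did not pass the test (adjusted p = 0.32).

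Of 7 genes known to respond to glucocorticoids, which also act on *Per1*, 1 fell and 1 rose (median 0.12), near the share of all genes (14.2% in each direction). The kinase gene *Sgk1* fell from 436 ± 32.6 to 186 ± 8.91 CPM (log2 fold change -1.23, adjusted p = 4.3e-07), and *Cdkn1a*, which encodes the cell cycle inhibitor p21, rose from 2.32 ± 0.502 to 4.49 ± 0.823 CPM (0.95, adjusted p = 0.0020). *Fkbp5* and *Tsc22d3*, both common readouts of the hormone, were at 0.34 and -0.03 without passing the test (adjusted p = 0.32 and 0.86).

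Among 10058 other genes at or above a mean of 10 CPM, those whose deviations from the genotype mean were most like those of *Nr1d1* over the 7 libraries were *Pou2f1*, *Sntb2*, *Srrm2*, *Cacna1f* and *Grik5* (r from 0.990 to 0.996). The most opposite were *Ptcd2*, *Arl6ip5*, *Tmem38a*, *Tfam* and *Ndufaf7* (r from -0.999 to -0.995). For *Arntl* the most alike were *Vps51*, *Patl1*, *Elf1*, *Pcbp4* and *Zfp78* (r from 0.981 to 0.995), and the most opposite *Ptbp2*, *Tspan14*, *Itpr2* and *Pdc* (r from -0.980 to -0.977). None of them is among the clock genes described above. With 7 points and this many genes, values of this size describe the libraries and are no sign of a relation.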
